A study of Mus musculus with 12 samples.

Results

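The genes described here encode the receptors for the colony stimulating factors and their close partners. They are Csf1r, Csf2ra, Csf2rb, Csf2rb2, Csf3r, Il3ra and Kit, taken by symbol from the deposited count table, and make up 7 of its 23420 gene rows. All 7 had enough counts to be tested. The libraries are bulk RNA-seq of macrophages sorted from bone marrow of 2 mice, called mouse 7 and mouse 19, with a C57BL/6 background. In each mouse the tibia had received mesenchymal stromal cells (MSCs), the fibroblast-like supporting cells of the marrow, and the labels call its cells MSC-educated macrophages. The femur of the same mouse was untreated. There are 3 libraries per bone and mouse, 12 in all. All MSC-treated bones are tibias and all others femurs, which means that effects of treatment and of bone cannot be told apart. The title of the series speaks of leukaemic marrow. Age, the surface markers of the sort, whether these mice carried leukaemia, and the dose, route and time of the MSCs were not found in the labels.

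Colony stimulating factors are secreted proteins that keep blood progenitors alive and drive them to become macrophages and granulocytes. CSF1R and KIT are receptor tyrosine kinases that bind CSF1 or IL-34, and stem cell factor, and signal through their own kinase domains. The others are cytokine receptors without a kinase of their own: CSF3R pairs with itself to bind G-CSF, while CSF2RA (for GM-CSF) and IL3RA (for IL-3) each join a shared beta chain, and all of them signal through bound JAK kinases and STAT proteins. Marrow macrophages depend on CSF1R signalling, CSF3R is best known from neutrophils, and KIT from stem cells, progenitors and mast cells.

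Total counts per library ran from 9773455 to 14869150, with 13524 to 13902 genes holding a count. Macrophage markers were present: all 13 had counts in every group, with a summed level of 16014 to 17773 CPM in tibia libraries and 16479 to 19607 CPM in femur libraries (CPM, the share of a library's counts scaled to a fixed total, over library sizes scaled by TMM). Neutrophil markers were present too. The 9 of 10 that matched the table summed to 16386 to 29246 CPM in tibia libraries and 16213 to 27727 CPM in femur libraries, and none was at 0. In bulk RNA, fewer cells of a type and less RNA per cell cannot be told apart. Tests below are edgeR quasi-likelihood tests over 11806 genes with Benjamini-Hochberg adjustment, and a gene is called at an adjusted p under 0.05. They measure the spread between libraries. The labels do not say whether the 3 libraries of a bone come from separate sorts, so calls are also given on sums, that is, with the libraries of a bone added up for each animal.

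Together the receptor genes took 0.268% ± 0.00685 of the counts of a tibia library and 0.264% ± 0.0186 of those of a femur library (SD, n = 6 libraries each). Levels of different genes were compared as CPM per kilobase of annotated exon. Csf2ra, the alpha chain that binds GM-CSF, was highest at 271 ± 10.8 CPM per kilobase in tibia libraries and 266 ± 9.52 in femur libraries. Csf1r came next at 195 ± 11.9 in the tibia and 194 ± 36.2 in the femur. Csf3r had 119 ± 4.19 in the tibia and 130.1 ± 7.43 in the femur, and Csf2rb, the beta chain shared by GM-CSF, IL-3 and IL-5, had 115 ± 5.01 in the tibia and 111 ± 2.54 in the femur. The ranges of these neighbours overlapped in the tibia, with Csf3r at 115 to 126 and Csf2rb at 107 to 121 CPM per kilobase, and did not overlap in the femur, with Csf3r at 121 to 139 and Csf2rb at 106 to 113. Per kilobase of coding sequence their order was the other way round, with Csf2rb at 224 ± 9.73 in the tibia and 215 ± 4.93 in the femur, and Csf3r at 166 ± 5.84 in the tibia and 181 ± 10.4 in the femur. The low receptors were Csf2rb2, Il3ra and Kit. Csf2rb2, the second beta chain of the mouse, had 28.3 ± 1.69 in the tibia and 24.6 ± 1.03 in the femur, and Il3ra had 19.6 ± 1.65 in the tibia and 19.4 ± 2.67 in the femur, with femur ranges that touched at 23.0 to 26.0 for Csf2rb2 and 16.4 to 23.2 for Il3ra. Kit was lowest at 2.35 ± 0.358 in the tibia and 2.17 ± 0.665 CPM per kilobase in the femur.

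Few receptor genes differed between MSC-treated tibia and untreated femur, and by small amounts. Over both mice, Csf2rb2 was higher in the tibia by 14.8% and Csf3r fell by 8.53%, and the other 5 receptor genes did not pass. Within single mice Csf1r moved in opposite directions. It fell by 9.29% in the tibia of mouse 7 and was higher by 15.3% in the tibia of mouse 19. Over both mice 2 of the 7 were called, 1 in each direction, against 7.20% of all genes tested (3.51% higher and 3.69% lower). In mouse 7 the 2 called, Csf1r and Csf3r, were both lower, against 9.73% of all genes called (4.37% higher and 5.36% lower). In mouse 19 the 2 called, Csf1r and Csf2rb2, were both higher, against 5.17% called (2.96% higher and 2.21% lower). The change differed between the mice for Csf1r and Csf3r, against 4.74% of all genes (2.89% with the larger value in mouse 19 and 1.85% with the smaller). On sums none of the 7 was called by edgeR, against 0.551% of all genes (0.407% higher and 0.144% lower), and 1 of the 7 was higher at an unadjusted p under 0.05. None of the 7 had all tibia libraries on the same side of all femur libraries over both mice, against 1.69% of all genes. The largest change of a receptor gene that passed was that of Csf2rb2 in mouse 19, at 23.2%. No test was made of the 7 genes as a group.

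**Figure D1:**
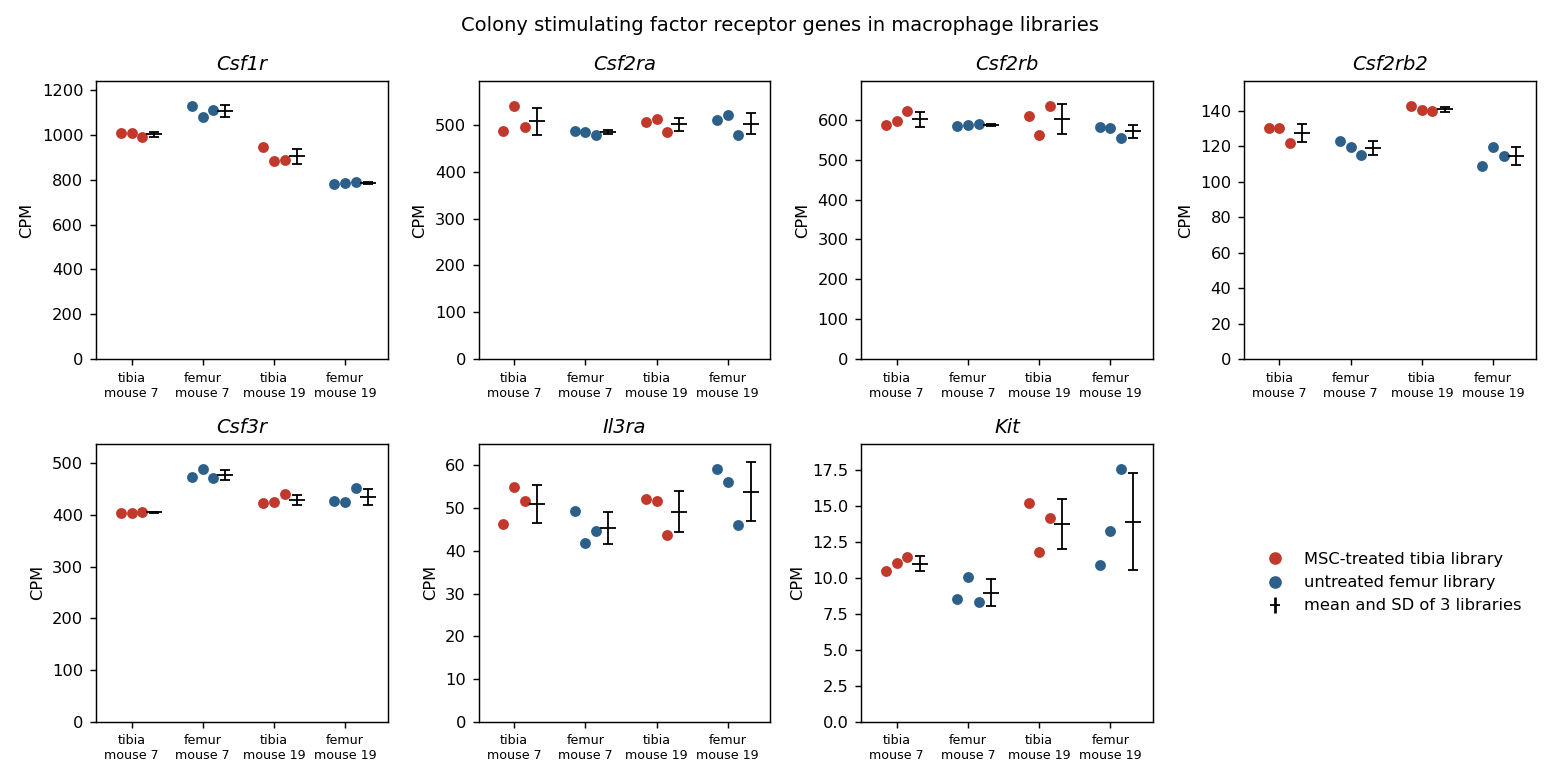
Level of each receptor gene in CPM (y axes, linear, from 0) in the 12 libraries, grouped on the x axis by bone and mouse. Points are libraries (red, MSC-treated tibia; blue, untreated femur) and bars are mean and SD of 3 libraries. Csf1r libraries of the tibia lie below the femur in mouse 7 and above it in mouse 19, and Csf2rb2 tibia libraries of mouse 19 lie between 140.04 and 143 CPM, above all femur libraries.

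Csf1r lies on chromosome 18 (GRCm38.p6, 61105572 to 61131139, plus strand) and encodes the receptor for CSF1 and IL-34 that marrow macrophages need for survival and growth. In mouse 7 the tibia libraries had 1009.9, 1010.1 and 991 CPM, against 1128, 1079 and 1113 CPM in the femur libraries. Every tibia library lay below every femur library. In mouse 19 the tibia libraries had 945, 885 and 888 CPM, against 783, 784 and 789 CPM in the femur libraries, and every tibia library lay above every femur library. Bones were free of overlap for 26.6% of all genes in mouse 7 and 21.0% in mouse 19. The edgeR log2 change was -0.14 ± 0.03 (SE) in mouse 7 (adjusted p = 0.0071) and 0.21 ± 0.03 in mouse 19 (adjusted p = 1.9e-04). The difference between these changes, mouse 19 minus mouse 7, was 0.35 ± 0.05 (edgeR adjusted p = 2.2e-05) and kept its call without any of the 12 libraries (highest adjusted p = 2.5e-04). The call in mouse 7 was lost without femur library 1 of that mouse (-0.13, edgeR adjusted p = 0.0523). Over both mice the change was 0.03 ± 0.04 (95% interval -0.06 to 0.12, edgeR adjusted p = 0.745, 0.920 on sums), which averages the opposite changes.

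The mice also stood at different Csf1r levels. The ratio of mouse 19 to mouse 7 was 0.902 in the tibia and 0.710 in the femur. The mice were thus closer to each other in the tibia than in the femur. The macrophage marker list, which holds Csf1r itself, summed to 17046 to 17773 CPM in tibia libraries and 19038 to 19607 CPM in femur libraries of mouse 7. In mouse 19 it summed to 16014 to 16927 CPM in tibia libraries and 16479 to 16906 CPM in femur libraries. Lyz2 alone had 12978 CPM in the tibia and 13533 CPM in the femur of mouse 19, so the sums say little of the other markers. In mouse 19 edgeR called 7 of the 13 genes, Csf1r included, higher and 0 lower, against 2.96% and 2.21% of all genes tested. In mouse 7 it called 1 higher and 3 lower, against 4.37% and 5.36%. The change of 6 of these 13 genes differed between the mice, each with the larger value in mouse 19, against 2.89% of all genes tested. Beside Csf1r, the 6 include Adgre1 (listed as Emr1, the F4/80 antigen), chosen here after its values were seen. It changed by -0.22 ± 0.04 in mouse 7 and had 0.12 ± 0.04 in mouse 19, a difference with edgeR adjusted p = 1.6e-04. The patrolling monocyte genes Ace and Treml4, also named after their values were seen, had log2 changes of -0.54 ± 0.06 and -0.45 ± 0.07 in mouse 7 and 0.42 ± 0.07 and 0.51 ± 0.08 in mouse 19. Both differed between the mice (edgeR adjusted p = 8.0e-08 for Ace and 5.4e-07 for Treml4). They come from a list of 10 monocyte markers. Of these, 4 had the larger change in mouse 19, against 2.89% of all genes tested, and 2 the smaller, against 1.85%. The 2 were Spn, which patrolling monocytes also carry, at 0.02 in mouse 7 and -0.20 in mouse 19 (edgeR adjusted p of the difference 0.0090), and Ly6c2, at 0.07 in mouse 7 and -0.14 in mouse 19 (0.0341). The part of these markers in the Csf1r result was not tested.

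Csf3r, on chromosome 4 (126023441 to 126044975, plus strand), encodes the G-CSF receptor, which drives the production and release of neutrophils. In mouse 7 the tibia libraries had 405, 404 and 406 CPM, against 473, 489 and 471 CPM in the femur libraries, with no overlap. Of all genes tested, 26.6% had no overlap in mouse 7. In mouse 19 the tibia libraries had 423, 424 and 441 CPM, against 427, 425 and 453 CPM in the femur libraries. There the bones overlapped, and both lay between the bones of mouse 7. The log2 change was -0.24 ± 0.04 in mouse 7 (edgeR adjusted p = 4.9e-05) and -0.02 ± 0.04 in mouse 19 (0.856). The difference between the mice was 0.22 ± 0.05 (edgeR adjusted p = 0.0089) and kept its call without any of the 12 libraries (highest adjusted p = 0.0481). Over both mice the change was -0.13 ± 0.04 (95% interval -0.20 to -0.05, edgeR adjusted p = 0.0287), with 5 of 6 tibia libraries below the femur mean of their mouse. This call was lost on sums (0.500). It was also lost without any of the 6 libraries of mouse 7 or without femur library 3 of mouse 19 (edgeR adjusted p from 0.0508 to 0.0825).

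The summed level of the neutrophil markers overlapped between the bones in both mice. They summed to 16386 to 17776 CPM in tibia libraries and 16213 to 17809 CPM in femur libraries of mouse 7, and to 27070 to 29246 CPM in tibia libraries and 24175 to 27727 CPM in femur libraries of mouse 19. The medians in mouse 19 were 28849 CPM in the tibia and 24345 CPM in the femur. S100a8, S100a9 and Ngp had 5063, 6617 and 5701 CPM in the tibia and 4411, 6017 and 5301 CPM in the femur over both mice. The sums thus say little of the other neutrophil markers. Single markers moved in either direction, and of the 9 tested 2 were called higher over both mice (S100a8 and Camp) and 3 lower (Mmp9, Retnlg and Mmp8). Of all genes tested, 3.51% were called higher and 3.69% lower. In mouse 7, 1 of the 9 was called higher and 3 lower, against 4.37% and 5.36% of all genes. In mouse 19, 4 were called higher and 1 lower, against 2.96% and 2.21%. Mmp9, a gelatinase gene of neutrophil granules, had 237 ± 23.0 CPM in the tibia and 333 ± 5.53 CPM in the femur of mouse 7, and 437 ± 9.35 CPM in the tibia and 511 ± 15.8 CPM in the femur of mouse 19 (SD, n = 3 libraries each). Its log2 change over both mice was -0.36 ± 0.04 (edgeR adjusted p = 1.8e-05, 0.0399 on sums), and it was called lower in each mouse. These markers were named after their values were seen. Granulocyte precursor markers are genes of the primary granules of young granulocytes and their regulators. Of 8 such markers, 6 were called higher in the tibia over both mice, against 3.51% of all genes tested. The 8 markers summed to 1178 to 1418 CPM in tibia libraries and 831 to 888 CPM in femur libraries of mouse 7. In mouse 19 they summed to 1672 to 2060 CPM in tibia libraries and 1357 to 1686 CPM in femur libraries. Their part in the Csf3r result was not tested.

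**Figure D2:**
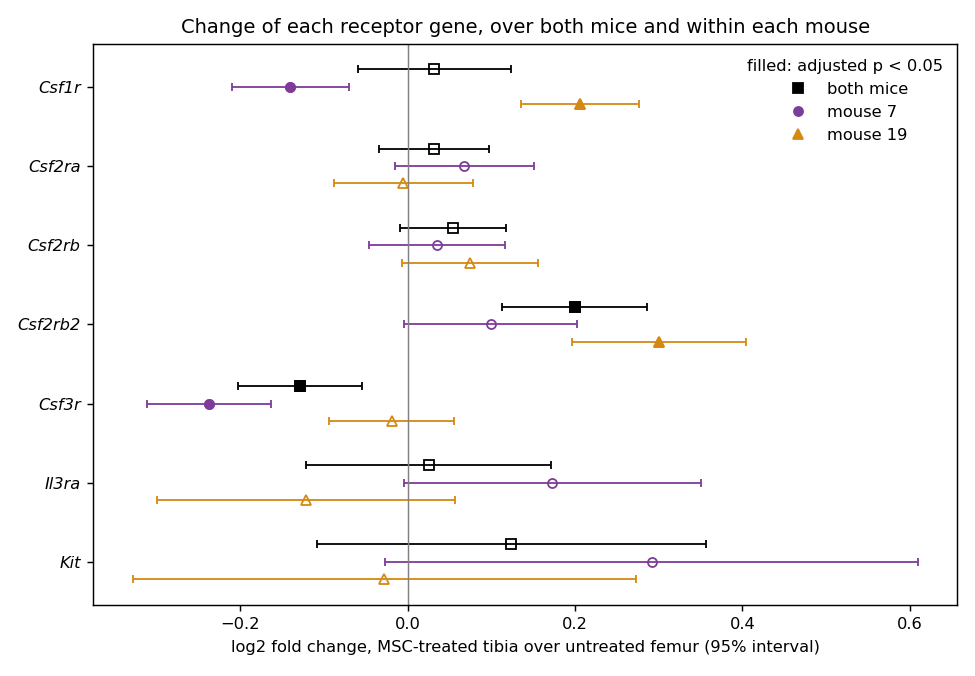
Log2 fold change of each receptor gene, MSC-treated tibia over untreated femur (x axis), with its 95% interval, over both mice (squares), in mouse 7 (circles) and in mouse 19 (triangles). Filled symbols passed the edgeR test at an adjusted p under 0.05. The Csf1r symbols of the mice lie on opposite sides of 0 at -0.14 and 0.21, and Kit has the widest intervals.

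The remaining cytokine receptors share beta chains. In the mouse, GM-CSF uses Csf2ra with Csf2rb, while IL-3 uses Il3ra with either Csf2rb or Csf2rb2, a beta chain gene that serves IL-3 alone and has no counterpart in humans. Csf2rb (78325800 to 78351001, plus strand) and Csf2rb2 (78282507 to 78305721, minus strand) are neighbours on chromosome 15 in GRCm38.p6. Their longest coding sequences in GENCODE M21 matched at 2505 of 2631 aligned bases (95.2%), with a longest identical run of 242 bases. Of all 50-base windows of the coding sequence, 26.0% of those of Csf2rb occur unchanged in Csf2rb2 and 26.5% of those of Csf2rb2 in Csf2rb. For 100-base windows these shares are 11.03% and 11.3%, and for 150-base windows 6.49% and 6.63%. The sequence of a read that lies wholly in such a window fits both genes. How such reads were counted was not given, so the separate values of the pair are uncertain.

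Below, 4 stretches of coding sequence (5′ to 3′, sense strand, GRCm38) show where the pair is alike and where it differs. The first set, from coding exon 7 of both genes (chr15:78341658-78341747 plus strand for Csf2rb, chr15:78291563-78291652 minus strand for Csf2rb2), is identical over 90 bases.
Csf2rb, shared stretch: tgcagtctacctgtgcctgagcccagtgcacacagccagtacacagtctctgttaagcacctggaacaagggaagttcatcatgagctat
Csf2rb2, shared stretch: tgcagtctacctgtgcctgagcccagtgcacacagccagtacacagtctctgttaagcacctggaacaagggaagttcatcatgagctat
The second set, from coding exon 3 (chr15:78338897-78338986 plus strand for Csf2rb, chr15:78294345-78294434 minus strand for Csf2rb2), is the 90-base stretch that differs most, and capitals mark its 16 differing bases.
Csf2rb, differing stretch: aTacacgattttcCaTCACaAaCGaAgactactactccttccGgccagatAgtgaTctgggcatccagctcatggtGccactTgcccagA
Csf2rb2, differing stretch: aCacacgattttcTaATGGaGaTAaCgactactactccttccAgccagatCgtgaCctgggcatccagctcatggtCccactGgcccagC

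Csf2rb2 was the receptor gene that was higher in the tibia. In mouse 19 the tibia libraries had 143, 140.3 and 140.04 CPM, against 109, 119 and 115 CPM in the femur libraries, with no overlap. Of all genes tested, 21.0% had no overlap in mouse 19. In mouse 7 the tibia libraries had 130.5, 130.5 and 122 CPM, against 123, 119 and 115 CPM in the femur libraries. There the lowest tibia library lay below the highest femur library. Over both mice all 6 tibia libraries lay above the femur mean of their mouse, with 134 ± 7.998 CPM in the tibia and 117 ± 4.89 CPM in the femur (SD, n = 6 libraries each). The log2 change was 0.20 ± 0.04 (95% interval 0.11 to 0.29, edgeR adjusted p = 0.0041), and kept its call without any of the 12 libraries (highest adjusted p = 0.0142). It did not pass on sums (adjusted p = 0.278). Within mice it was 0.30 ± 0.05 in mouse 19 (edgeR adjusted p = 2.2e-04) and 0.10 ± 0.05 in mouse 7 (0.244). The mouse 19 change minus the mouse 7 change was 0.20 ± 0.07 and missed the threshold (edgeR adjusted p = 0.121).

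Csf2rb, the more abundant copy, had tibia libraries of 586, 596 and 622 CPM, against 584, 587 and 590.1 CPM in the femur libraries of mouse 7. In mouse 19 it had 610.1, 562 and 634 CPM in tibia libraries, against 582, 579 and 553 CPM in femur libraries. The bones overlapped in both mice. Its log2 change of 0.05 ± 0.03 (95% interval -0.01 to 0.12) did not pass (edgeR adjusted p = 0.325), nor did that of either mouse (0.658 in mouse 7 and 0.347 in mouse 19). Since some reads fit both genes of the pair, their counts were also added into 1 gene. The sum had a log2 change of 0.08, which did not pass (edgeR adjusted p = 0.0956). In mouse 19 the sum changed by 0.12 and did not pass either (edgeR adjusted p = 0.0645). Csf2rb2 was thus called when counted on its own, and the total of the copies was not.

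Csf2ra, on chromosome 19 (61217191 to 61228461, minus strand), showed almost no difference between bones. Its tibia libraries had 487, 540.1 and 497 CPM in mouse 7 and 506, 512 and 486 CPM in mouse 19. Its femur libraries had 488, 486 and 479.8 CPM in mouse 7 and 510.1, 522 and 478 CPM in mouse 19. Bones overlapped in both mice, and the highest of all 12 libraries was 1.13 times the lowest, the smallest such ratio of the 7 genes. The log2 change was 0.03 ± 0.03 (95% interval -0.03 to 0.10, edgeR adjusted p = 0.633).

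Il3ra, on chromosome 14 (14345912 to 14355493, plus strand), varied more between libraries. Its tibia libraries had 46.2, 54.9 and 51.7 CPM in mouse 7 and 52.1, 51.7 and 43.7 CPM in mouse 19. Its femur libraries had 49.3, 41.8 and 44.8 CPM in mouse 7 and 59.2, 56.2 and 46.0 CPM in mouse 19. The bones overlapped in both mice. The log2 change was 0.17 ± 0.09 in mouse 7 (edgeR adjusted p = 0.235) and -0.12 ± 0.09 in mouse 19 (0.520), and their difference of -0.30 ± 0.12 did not pass (0.217). Over both mice it was 0.03 ± 0.07 (95% interval -0.12 to 0.17, edgeR adjusted p = 0.886), a value that changed sign when single libraries were left out.

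Kit, on chromosome 5 (75574987 to 75656722, plus strand), was the least abundant of the 7 genes and the most variable. In mouse 7 the tibia libraries had 10.4, 11.004 and 11.5 CPM, against 8.54, 10.03 and 8.29 CPM in the femur libraries, and every tibia library lay above every femur library. The bones of mouse 7 were free of overlap for 26.6% of all genes tested. In mouse 19 the tibia libraries had 15.2, 11.8 and 14.1 CPM, against 10.9, 13.2 and 17.5 CPM in the femur libraries, which enclosed those of the tibia. The change in mouse 7 was 0.29 ± 0.16 and did not pass (edgeR adjusted p = 0.270), nor did that in mouse 19 (-0.03 ± 0.15, 0.954) or over both mice (0.12 ± 0.11, 95% interval -0.11 to 0.36, 0.577). Kit had 987 counts over the tibia libraries and 861 over the femur libraries. Markers of other cells that carry KIT were looked at as well. The mast cell protease genes Tpsb2 and Cma1 were at 0 in all 12 libraries. The other mast cell and basophil markers had counts in every library, Cpa3 with 375 over the tibia and 310 over the femur libraries. The 10 markers summed to 104 to 144 CPM in tibia libraries and 115 to 154 CPM in femur libraries. Hdc alone had 75.4 CPM in the tibia and 82.9 CPM in the femur, so the sums say little of the other markers. None of the 8 mast cell and basophil markers that were tested was called over both mice, against 7.20% of all genes tested. Stem and progenitor markers summed to 83.8 to 111 CPM in tibia libraries and 84.6 to 112 CPM in femur libraries, with 1 of 8 tested called, Flt3, which was lower. Their part in the level of Kit was not tested.

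The spread among the 3 libraries of a bone set what could be seen. The mean coefficient of variation was 1.88% for Csf1r, 2.03% for Csf3r, 3.12% for Csf2rb, 3.18% for Csf2rb2 and 3.41% for Csf2ra, and reached 9.85% for Il3ra and 12.99% for Kit. Between the mice, Kit differed most in level, with a ratio of mouse 19 to mouse 7 of 1.25 in the tibia and 1.55 in the femur, and Csf2rb least in the tibia, at 1.00. These ratios were not tested.

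Ratios within a library do not depend on how libraries are scaled. Csf2rb2 made up 18.3% ± 1.19 of the counts of the beta chain pair in the tibia and 16.8% ± 0.604 in the femur (SD, n = 6 libraries each). In mouse 19 its share was 18.1 to 20.0% in tibia libraries and 15.8 to 17.2% in femur libraries, with no overlap, and in mouse 7 it was 16.4 to 18.2% in tibia libraries and 16.3 to 17.4% in femur libraries, which overlapped. For every 100 counts of Csf1r there were 40.4 ± 0.521 counts of Csf3r in the tibia and 43.2 ± 1.88 in the femur of mouse 7, and 47.5 ± 2.44 in the tibia and 55.4 ± 1.74 in the femur of mouse 19 (SD, n = 3 libraries each). Csf3r counts relative to Csf1r counts were lower in the tibia libraries of both mice, without overlap. Single genes were free of overlap for 26.6% in mouse 7 and 21.0% in mouse 19, and ratios of other gene pairs were not counted. In mouse 7 Csf1r and Csf3r were both lower in the tibia and Csf3r by more, while in mouse 19 Csf1r was higher. Csf2ra had 84.0 ± 5.81 counts per 100 of Csf2rb in the tibia and 85.3 ± 3.28 in the femur, and the bones overlapped. The ratios were not tested.

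**Figure D3:**
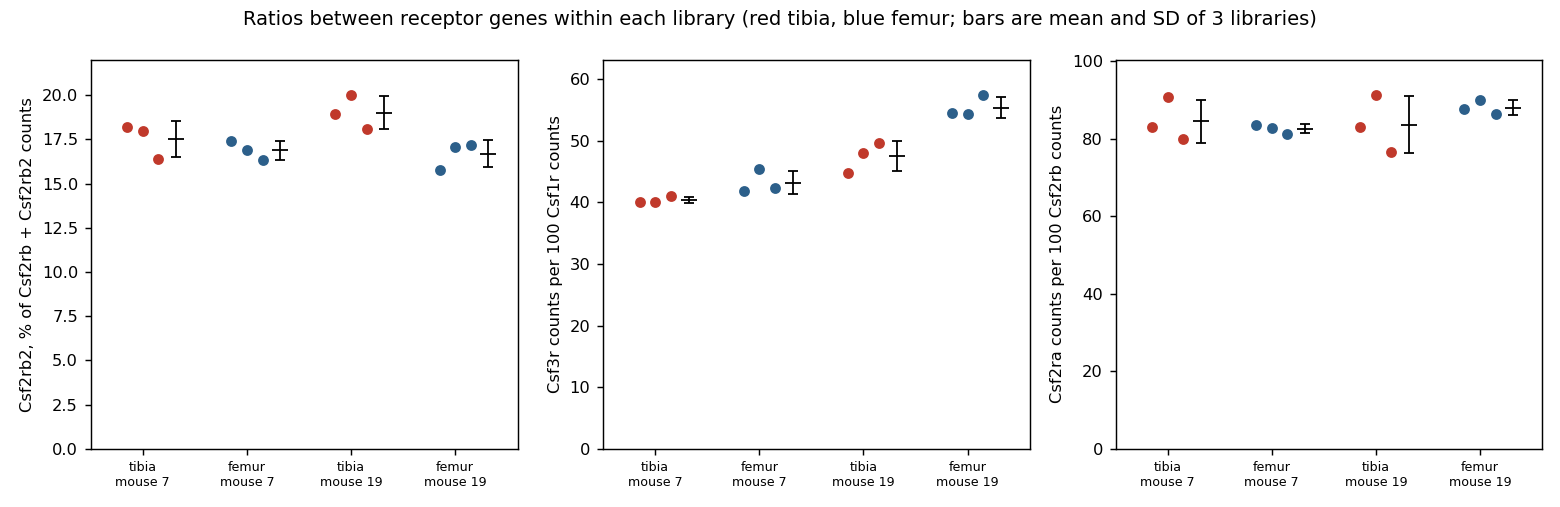
Ratios between receptor genes within each library, by bone and mouse (x axes). The left panel has Csf2rb2 as a percentage of the counts of Csf2rb and Csf2rb2, the middle panel Csf3r counts per 100 Csf1r counts and the right panel Csf2ra counts per 100 Csf2rb counts. Points are libraries (red tibia, blue femur) and bars are mean and SD of 3 libraries. The middle panel shows tibia below femur in each mouse, with means of 40.4 in the tibia and 43.2 in the femur of mouse 7, and 47.5 in the tibia and 55.4 in the femur of mouse 19.

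The factors that bind these receptors had few counts in the sorted cells, and 1 of 7 ligand genes, Csf1, had enough counts to be tested. Csf1 had 10.4 ± 1.68 CPM in the tibia and 8.54 ± 1.40 CPM in the femur (SD, n = 6 libraries each), and all 6 tibia libraries lay above the femur mean of their mouse. Its log2 change of 0.28 ± 0.12 did not pass (edgeR adjusted p = 0.170). Kitl, the gene of stem cell factor, had 0.429 CPM in the tibia and 0.373 CPM in the femur, near the 0.404 to 0.617 CPM that a count of 0 in a library still allows. Csf2 and Il3, the genes of GM-CSF and IL-3, had no count in any of the 12 libraries. Il34 had 0 counts over the tibia and 4 over the femur libraries, Csf3 had 4 in each bone, and Il5 had 1 in each bone.

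Of 6 related receptor genes, 4 were tested, and 2 were lower in the tibia, against 3.69% of all genes tested. Flt3, the receptor tyrosine kinase of early progenitors and dendritic cells, had 18.3 ± 2.50 CPM in the tibia and 22.8 ± 1.70 CPM in the femur, a log2 change of -0.31 ± 0.08 (edgeR adjusted p = 0.0267, 0.253 on sums). Il5ra, the IL-5 receptor of eosinophils that also pairs with Csf2rb, had 6.59 ± 1.47 CPM in the tibia and 8.85 ± 1.69 CPM in the femur, a change of -0.43 ± 0.12 (edgeR adjusted p = 0.0278, 0.302 on sums). The 10 dendritic cell markers, which include Flt3, summed to 76.3 to 107 CPM in tibia libraries and 108 to 128 CPM in femur libraries. Of the 10, 3 were called lower (Cd209a, Itgax and Flt3 itself) and 0 higher, against 3.69% and 3.51% of all genes tested. Itgax alone had 51.1 CPM in the tibia and 64.2 CPM in the femur, so the sums say little of the other markers. Xcr1, Clec9a and Zbtb46, at low levels, were among those that did not pass. The 6 eosinophil markers summed to 120.02 to 318 CPM in tibia libraries and 114 to 419.8 CPM in femur libraries, and the 2 called lower were Il5ra itself and the ribonuclease gene Ear1. The part of these cells was not tested. Pdgfrb (1.04 CPM in the tibia and 1.12 CPM in the femur) and the erythropoietin receptor gene Epor (0.446 CPM in the tibia and 0.748 CPM in the femur) did not pass. Pdgfra had 1 count over the tibia and 10 over the femur libraries.

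Of the 27 genes of signal transducers below the receptors (JAK kinases, STAT proteins, SRC family kinases, adaptors and PI3 kinases), 0 were higher and 3 were lower over both mice, with a median log2 change of -0.055 against -0.0021 for all genes tested. Of all genes tested, 3.51% were called higher and 3.69% lower. The 3 included Syk, a kinase that adaptor chains recruit, at -0.14 ± 0.03 (edgeR adjusted p = 0.0132), and the phospholipase gene Plcg2 at -0.10 ± 0.03 (0.0294). DESeq2 called 6 lower and 0 higher, and at an unadjusted p under 0.05 edgeR had 7 lower and 0 higher. None of the 27 passed on sums, where 1 was lower at an unadjusted p under 0.05. In mouse 7, where 5.36% of all genes were called lower and 4.37% higher, edgeR called 9 of the 27 lower and 0 higher (12 lower and 1 higher unadjusted), and DESeq2 called 10 lower and 0 higher. In mouse 19 edgeR called none (3 higher and 1 lower unadjusted) and DESeq2 called 1 lower. The change differed between the mice for 4, each with the larger value in mouse 19, against 2.89% of all genes tested. The kinase that the beta chains and the G-CSF receptor use, Jak2, had 135 CPM in the tibia and 136 CPM in the femur, and Stat5a had 64.5 CPM in the tibia and 65.3 CPM in the femur, and neither passed (edgeR adjusted p = 0.990 for Jak2 and 0.887 for Stat5a). Stat5b, with 205 CPM in the tibia and 221 CPM in the femur, did not pass over both mice either (-0.11 ± 0.03, edgeR adjusted p = 0.0567). In mouse 7 Stat5b (-0.16 ± 0.04, edgeR adjusted p = 0.0171) and Jak1 (-0.13 ± 0.04, 0.0284) were called lower. Jak2 (0.942) and Stat5a (0.938) did not pass there. Stat5b and Jak1 were named after their values were seen.

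Among 12 tested genes that restrain these receptors, 1 was higher and 2 were lower. Of all genes tested, 3.51% were called higher and 3.69% lower. Socs3, which binds the activated G-CSF receptor and blocks its JAK kinases, had 93.7 CPM in the tibia and 67.4 CPM in the femur, a log2 change of 0.50 ± 0.11 (edgeR adjusted p = 0.0047, 0.119 on sums). It changed more in mouse 19, with 96.9 CPM in the tibia and 53.3 CPM in the femur, than in mouse 7, with 90.6 CPM in the tibia and 81.5 CPM in the femur (difference of 0.71 ± 0.14 on the log2 scale, edgeR adjusted p = 0.0019). The ubiquitin ligase genes Cbl, whose product marks activated CSF1R and KIT for degradation, and Cblb, its close relative, were lower at -0.20 ± 0.04 (edgeR adjusted p = 0.0038, 0.154 on sums) and -0.19 ± 0.06 (0.0359, 0.356 on sums).

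Of 14 genes that control transcription of the receptors or their shedding, 1 was higher and 1 lower. Of all genes tested, 3.51% were called higher and 3.69% lower. Cebpa, a factor of the myeloid progenitor programme that acts on the Csf3r promoter, was lower at -0.13 ± 0.03 (edgeR adjusted p = 0.0187, 0.452 on sums). Runx1, which acts on Csf1r, had 96.0 CPM in each bone, and the shedding protease gene Adam17 had 207 CPM in the tibia and 212 CPM in the femur, and neither passed. Of 11 genes of growth and survival that the receptors induce, 0 were higher and 1 was lower, against the same shares of all genes. The lower gene was Ccnd2, which encodes the cell cycle protein cyclin D2. It had 16.9 CPM in the tibia and 23.8 CPM in the femur, a log2 change of -0.49 ± 0.09 (edgeR adjusted p = 7.7e-04, 0.0497 on sums). At an unadjusted p under 0.05 edgeR had 2 higher and 2 lower, and DESeq2 also called 0 higher and 1 lower. The cytokine gene Osm, named here after its values were seen, passed on sums (edgeR adjusted p = 0.0386) and not over the libraries (0.41 ± 0.17, edgeR adjusted p = 0.148). Median log2 changes were -0.015 for the restraining genes, -0.016 for the regulators and 0.0051 for the targets.

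**Figure D4:**
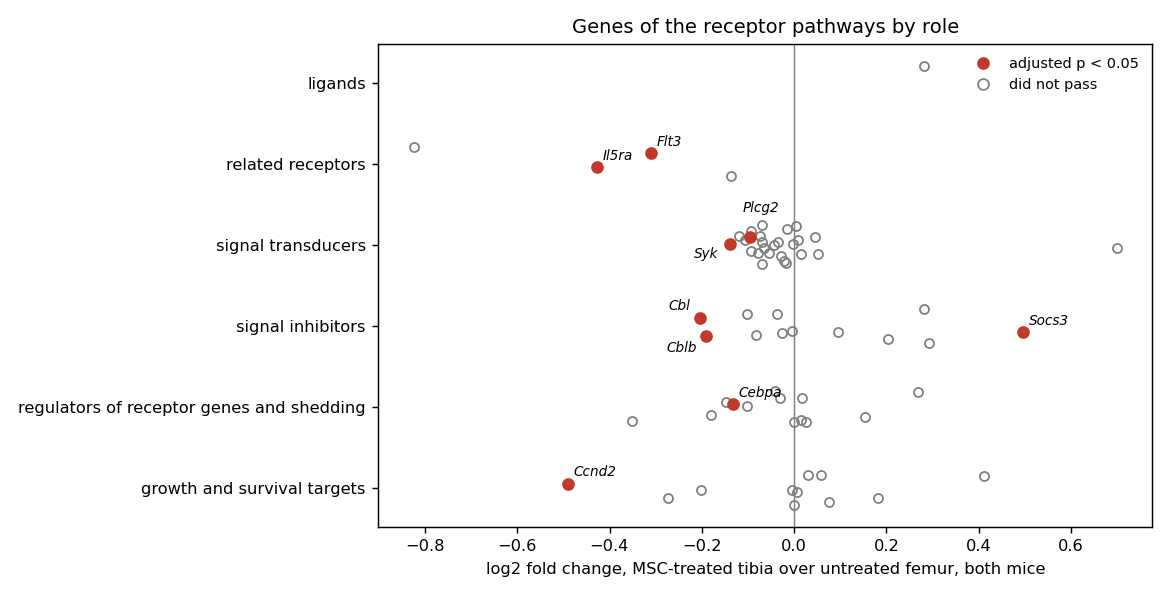
Log2 fold change over both mice, MSC-treated tibia over untreated femur (x axis), of tested genes of each role (y axis). Each point is a gene, placed at random height within its role. Filled red points passed the edgeR test at an adjusted p under 0.05, and those that passed are drawn only where the text names them. Socs3 at 0.50 lies right of 0, and Ccnd2 lies farthest left of the red points at -0.49.

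Across the 12 libraries, each gene's log2 CPM was taken as its deviation from the mean of its mouse and set against 8506 other genes of at least 10 CPM. The libraries share the bone contrast and the scaling, so these values describe likeness and are given with no p. Genes closely like Csf1r included Vill (Pearson r = 0.96) and Hfe (0.96), the haemochromatosis gene. Both had a negative log2 change in mouse 7 and a positive one in mouse 19, at -0.36 and 0.60 for Vill. The genes most like Csf2rb2 were Cxcl16 (r = 0.95), Sfxn5 (0.94) and the complement receptor gene C5ar1 (0.94). All of them were called higher in the tibia, Cxcl16 by 1.01 on the log2 scale. Since the bone contrast is part of r, these calls are no separate result. Their r with Csf2rb2 was 0.83, 0.82 and 0.73 in mouse 7 and 0.99, 0.98 and 0.98 in mouse 19. The genes most like Csf3r were Syk (r = 0.97), Ptprc (0.95), which encodes the CD45 antigen, and Samhd1 (0.95). Their likeness to Csf3r rested on mouse 7, where r was 0.98 or more for each, while in mouse 19 it was 0.69, 0.52 and 0.25.

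For the other receptor genes the nearest genes were less close. Il3ra was nearest to Rwdd1 (r = 0.92), Frat2 (0.91) and Mvb12a (0.90). Csf2ra was nearest to Dffb (0.86), Zfp771 (0.85) and D17Wsu104e (0.84), Csf2rb to Slc52a2 (0.86), Slc29a3 (0.86) and Ncdn (0.86), and Kit to Cdca7 (0.85), Ccdc69 (0.84) and Impad1 (0.84). Among the receptor genes themselves the highest r was 0.80, between the alpha chains Csf2ra and Il3ra, and the lowest was -0.60, between Csf3r and Il3ra. The beta chains Csf2rb and Csf2rb2 had an r of 0.43.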

How the data were processed

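The authors deposited raw read counts per gene, 1 column per library, in whole numbers. Per the submitters' processing notes, the build was mm10 and the tools bcl2fastq, HISAT2, featureCounts, Subread and DESeq2, with settings, strand handling and annotation not given in the sources used here. All 12 columns were matched to samples by title, with 0 left over. Of counts from 1 to 10, 69.8% were even, which fits a count for either mate of a pair, so the 3 fragments that a count of 0 allows are 6 counts (95% confidence, counting error only).

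The counts went into edgeR 4.0.16 under R 4.3.3: TMM scaling, filterByExpr with a minimum count of 10, and two-sided quasi-likelihood tests, with the mouse as a term over both mice and 1 mean per mouse and bone for the contrasts within and between mice. The biological coefficient of variation was 6.26% and 5.51% in these models. Standard errors were derived as change over root F. Libraries of 1 bone and mouse had a chi-square per gene of 2.72 to 6.17, above sampling noise, and stayed separate. Alternatives were DESeq2 1.42.0, its size factors, no filter, a filter of 5 CPM in 3 libraries, halved counts, sums per mouse and bone, no mouse term, a replicate block, the beta chain pair added, coding length, and leaving out each library. Log2 CPM for likeness used a prior count of 2. The script was tested on simulated data. Lengths, strands, coding sequences and the positions of the printed stretches come from GENCODE M21. The chromosome, start and end of each receptor gene come from RefSeq. Both are on GRCm38, the assembly that mm10 names. The counting annotation may have differed.

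The members and the 18 gene lists were chosen with earlier results of these data known. All 7 receptor genes, their ligands and the related receptors are named whatever their values. From each other role list up to 4 called higher and 4 called lower are named by size, and for each receptor the 3 genes with the highest r. A few genes that this rule names are not reported here. Further names are given as examples or as chosen after their values were seen.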

Additional observations from a re-analysis of the deposited data

Results flagged for a closer look

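The change of Csf1r between tibia and femur differed between the mice by an interaction test. It was -0.14 in mouse 7 and 0.21 in mouse 19 on the log2 scale, a difference of 0.35 ± 0.05 (edgeR adjusted p = 2.2e-05). The change of Csf3r differed as well, at -0.24 in mouse 7 and -0.02 in mouse 19, a difference of 0.22 ± 0.05 (edgeR adjusted p = 0.0089).

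For Csf2rb, femur library 3 of mouse 19 stood apart from the other 5 femur libraries, at 553 CPM against 579 to 590.1 CPM. Chance sets about 1 in 20 groups of this size apart in this way.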

How the results depend on the processing

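P-values over libraries cannot stand for animals, of which there are 2, and Kit and Il3ra varied most between libraries. In the other models and filters, 43 of 43 values within mouse 7, within mouse 19 and of their difference kept their direction and side of the threshold. Over both mice 52 of 57 did. The exceptions were Csf2rb2 at 0.20 on sums (edgeR adjusted p = 0.278) and 0.20 without the mouse term (0.0729), and Csf3r at -0.13 on sums (0.500) and -0.13 without the mouse term (0.210). Csf3r was also lost, at -0.13 (0.0835), with a replicate block on the library numbers, which do not pair the libraries (r of same-numbered libraries -0.0474 to 0.000594). The cause was not tested. No other call of a receptor gene changed with the block.

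Genes called higher and lower over both mice, 414 and 436, were 48 and 17 on sums, 50 and 24 without the mouse term, and 239 and 256 with the replicate block.

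Without single libraries, log2 changes over both mice ranged from -0.00057 to 0.056 for Csf1r, from -0.15 to -0.11 for Csf3r and from -0.017 to 0.079 for Il3ra. Csf1r in mouse 7 ranged from -0.16 to -0.13. In mouse 19 Csf2ra ranged from -0.041 to 0.022, Csf3r from -0.039 to 0.012 and Kit from -0.17 to 0.18. The difference between the mice for Csf2rb ranged from -0.0083 to 0.078. The changes that crossed 0 were not called in any of these fits.

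Genes called lower over both mice were 279 to 490, the lowest being 279 without tibia library 3 of mouse 7, and mouse 19's tibia library 2 left out gave 283. In mouse 7, 314 to 602 were higher and 381 to 621 lower, with the low values without tibia library 3 (314 and 387), femur library 1 (315 and 409) or femur library 2 (317 and 381) of that mouse. In mouse 19, 226 to 365 were higher and 116 to 369 lower. There tibia library 1 of mouse 19 gave 226 and 116, and the lower count was 135 without its tibia library 2 and 137, 164 and 170 without its femur libraries 1, 2 and 3.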

Other observations

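Prg2, the major basic protein gene of eosinophil granules, looked at beside Il5ra and named after its values were seen, moved in opposite directions in the mice. It had 89.8 ± 19.5 CPM in the tibia and 60.6 ± 3.99 CPM in the femur of mouse 7, and 178 ± 27.7 CPM in the tibia and 231 ± 28.2 CPM in the femur of mouse 19 (SD, n = 3 libraries each). Its log2 change was 0.57 ± 0.11 in mouse 7 (edgeR adjusted p = 0.0012) and -0.38 ± 0.10 in mouse 19 (0.0231), and the mice differed (1.3e-04). The eosinophil ribonuclease genes Ear1 and Ear6, which have close copies, had negative values in both mice, at -0.26 and -0.21 in mouse 7 and -0.75 and -0.68 in mouse 19. The peroxidase gene Epx was higher in the tibia of mouse 7 (0.74, edgeR adjusted p = 0.0087) and did not pass in mouse 19 (-0.39, 0.143). Il5ra had -0.50 ± 0.17 in mouse 7 and -0.36 ± 0.16 in mouse 19, and its difference between the mice did not pass (edgeR adjusted p = 0.862). Myb, a transcription factor of progenitors that carry KIT, was also named after its values were seen. It was higher in the tibia of mouse 7 (0.35 ± 0.09, edgeR adjusted p = 0.0108) and had -0.11 ± 0.09 in mouse 19 (0.548), with a difference that passed (0.0230). In mouse 7, 1 of the 8 tested stem and progenitor markers was called higher, Myb itself, and 1 lower, Flt3. Of all genes tested, 4.37% were called higher and 5.36% lower there. The median log2 change of these markers in mouse 7 was -0.27.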
